A study of Mus musculus with 59 samples.

Results

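Replication-dependent histone genes were followed in mouse embryonic stem cells through treatment meant to delete Dgcr8 or Drosha, loss of METTL3 and heat shock. They were taken as every gene whose symbol begins with Hist1h, Hist2h, Hist3h or Hist4h, which gave 62 of the 39017 genes in the RNA tables. By symbol, 6 are genes of H1 linker histones, 20 of H2A, 16 of H2B, 7 of H3 and 13 of H4. The H2B genes include Hist3h2bb-ps, whose symbol marks it as a pseudogene. The Hist1 cluster on chromosome 13 holds 49 of them, the Hist2 cluster on chromosome 3 holds 9, the Hist3 cluster on chromosome 11 holds 3, and Hist4h4 lies alone on chromosome 6. In the chromatin data the genes were represented by the 52 windows of 5 kb that overlap them, of 546202 windows in all, and 21 of these windows hold 2 or more of the genes.

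As background, replication-dependent histone genes are transcribed in S phase, when new DNA must be packed into nucleosomes. Their mRNAs are the metazoan mRNAs that normally end in a conserved stem-loop and not in a poly(A) tail; the stem-loop binding protein SLBP, the U7 snRNP and the cleavage factor CPSF3 make that end. DROSHA and DGCR8 form the Microprocessor, which cuts primary microRNA transcripts and also some mRNAs; METTL3 is the catalytic subunit of the enzyme that methylates adenosine at its N6 position in mRNA; DICER acts later in the microRNA pathway. The RNA libraries were made after ribosomal RNA removal, with no poly(A) selection named in the labels, so that RNAs without a tail were counted.

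The cells were of a 129xC57Bl6 hybrid line. The floxed cultures were either "Rosa26:CRE, DGCR8 Flox/Flox" or Drosha Flox/Flox, for which the labels name no Cre; they received 0.5 µM 4-hydroxytamoxifen (4OHT), the ligand of tamoxifen-dependent Cre, and were set against untreated cultures at 24, 48 and 96 h (2 libraries a group, 1 for Drosha with 4OHT at 96 h). For the heat experiment, 4 Mettl3 knockout lines (1d1, 3xU, 1d2 and 2c4d, replicates 1 to 4 here), made in a line carrying Rosa26:BirA and DGCR8 FLAG/Avi, and 2 libraries of that parental line at each temperature were sampled after 1 h at 42 °C and at 37 °C. Chromatin was precipitated from lines carrying Rosa26:BirA with FLAG/Avi-tagged METTL3, DGCR8, DROSHA or DICER; FLAG/Avi is a peptide tag that BirA can biotinylate. Each genotype is 1 floxed line or a few clones. No label says whether replicates of a floxed or parental group came from separate cultures, so p-values measure the spread between these libraries, which may be technical.

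RNA libraries held 7.10 to 13.6 M counts and chromatin libraries 13.8 to 86.3 M (M, 1e6). Drosha stood at 23.4 to 29.1 CPM (counts per 1e6 counts, scaled by TMM) in 4OHT-treated Drosha-line libraries, against 82.4 to 125.9 CPM in untreated ones. Dgcr8 was higher with 4OHT in both lines (252.6 and 247.7 CPM with 4OHT, against 104.5 and 104.6 CPM untreated, in the DGCR8 line at 24 h), so its whole-gene count does not show the deletion. Mettl3 stood at 20.5 to 40.7 CPM in knockout libraries, against 60.3 to 71.4 CPM in parental ones, and the heat-shock gene Hspa1a at 163 to 245 CPM at 42 °C, against 0.656 to 1.56 CPM at 37 °C. All 10 stem-cell markers averaged at least 1 CPM in both tables, with summed levels of 2638 CPM or more in every library, while the fibroblast list summed to at most 46.5 CPM. The mitochondrial ribosomal RNAs took 31.8% and 11.5% of counts in DGCR8-line libraries with 4OHT at 96 h, against 18.9% and 16.0% untreated. In the Drosha line at 96 h they took 26.3% with 4OHT, against 14.8% and 15.1% untreated. Their part in the results at 96 h was not tested.

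Histone transcripts made up 0.472% of counts on average in the floxed lines (0.208 to 0.674%) and 0.452% in the heat libraries (0.327 to 0.589%). The H1 genes carried close to as many of these counts as the core histone genes together, 49.1% in the floxed lines and 45.2% in the heat libraries. H2B gave 19.2%, H2A 16.3%, H4 13.3% and H3 2.0% of the histone counts in the floxed lines. Per kilobase of exon, Hist1h1a, a linker histone gene, averaged 986 CPM per kb in the floxed lines. Hist1h2bb, which encodes H2B, averaged 823 CPM per kb, Hist1h4d, an H4 gene, 324 CPM per kb, Hist2h2ac, an H2A gene, 308 CPM per kb, and Hist1h3c, the most abundant H3 gene, 52.0 CPM per kb. Expression was concentrated in few genes: the 5 most abundant held 53.8% of histone counts in the floxed lines and 48.9% in the heat libraries. In the floxed lines 12 genes averaged at least 100 CPM, 31 lay between 10 and 100 CPM, 9 between 1 and 10 CPM and 6 below 1 CPM, and 4 rounded to 0. Of the genes, 3 were at 0 in every RNA library (Hist1h2ao, Hist1h2ap and Hist1h2bq), and Hist2h2aa1 and Hist2h2aa2 were near 0; these belong to sets of near-identical copies among which the counting could split or lose reads, so their values are uncertain. Hist1h1t, Hist1h2aa and Hist1h2ba are known from testis, where they encode the germ-cell linker histone and its H2A and H2B partners; Hist1h1t averaged 6.98 CPM and Hist1h2aa 22.5 CPM in the floxed lines.

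**Figure D1:**
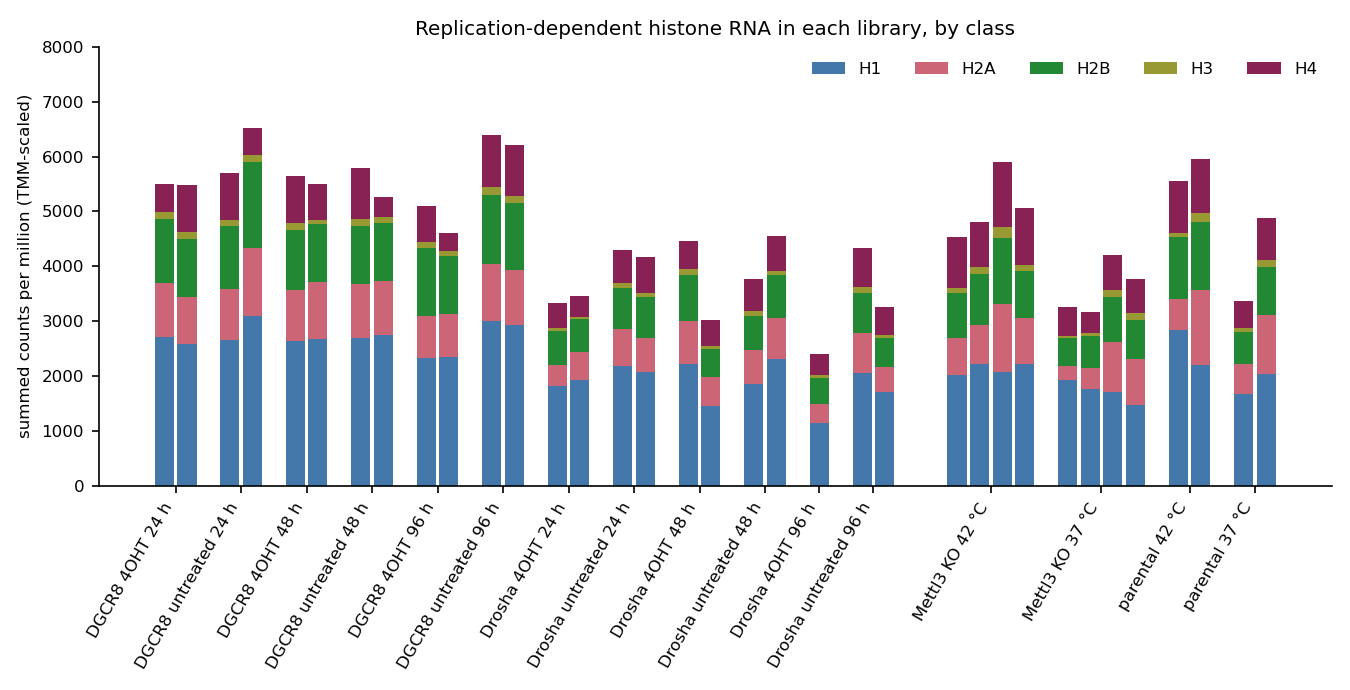
Summed level of the 62 histone genes in each RNA library (y axis, TMM-scaled CPM; each bar is 1 library, split by colour into H1, H2A, H2B, H3 and H4 genes), with treated or heated libraries left of their controls. The 4 knockout libraries at 42 °C sum to 4528 to 5895 CPM, above the 3171 to 4208 CPM of the knockout libraries at 37 °C; the Drosha-line library with 4OHT at 96 h is the lowest bar at 2405 CPM.

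The promoters of the genes that the results turn on are printed here so that their sequence can be read beside their behaviour. The first 4 are those of genes that edgeR called higher with heat in the Mettl3 knockout lines. Hist1h1t and Hist1h2aa were called in the main fit, Hist1h2bk and Hist1h4f in a fit that took each line's own level into account. Hist1h1a is the most abundant gene and Hist3h2a had the smallest p at 96 h of 4OHT. Each is the 250 bases before the annotated start, 5′ to 3′ on the gene's strand, from RefSeq on GRCm38.p6: chr13:23695561-23695810 (plus), chr13:23934187-23934436 (plus), chr13:22035571-22035820 (plus), chr13:23551669-23551918 (minus), chr13:23763418-23763667 (plus) and chr11:58954435-58954684 (plus), in the order of the lines. Capitals mark the CCAAT box on either strand (ATTGG on the other), the octamer ATTTGCAT and its overlapping variant TTTGCATA on either strand, the H1-box AAACACA on either strand, TATAAA on the gene's strand, and, in the H4 promoter, GGTCC on the gene's strand.
Hist1h1t: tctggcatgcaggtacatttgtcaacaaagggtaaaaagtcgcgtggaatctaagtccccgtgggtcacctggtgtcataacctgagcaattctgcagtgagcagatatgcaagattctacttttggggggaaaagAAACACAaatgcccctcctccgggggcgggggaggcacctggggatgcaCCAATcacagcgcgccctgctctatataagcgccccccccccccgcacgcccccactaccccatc
Hist1h2aa: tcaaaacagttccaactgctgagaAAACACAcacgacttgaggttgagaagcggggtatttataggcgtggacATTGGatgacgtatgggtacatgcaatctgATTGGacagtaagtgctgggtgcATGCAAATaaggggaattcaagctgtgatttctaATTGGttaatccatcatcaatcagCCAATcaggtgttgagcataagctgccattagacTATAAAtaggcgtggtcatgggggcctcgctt
Hist1h2bk: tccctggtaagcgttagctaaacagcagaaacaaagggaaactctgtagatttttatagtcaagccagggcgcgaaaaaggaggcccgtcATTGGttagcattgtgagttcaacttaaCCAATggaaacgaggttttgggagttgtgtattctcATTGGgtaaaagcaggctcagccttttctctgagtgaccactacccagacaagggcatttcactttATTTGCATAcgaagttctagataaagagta
Hist1h4f: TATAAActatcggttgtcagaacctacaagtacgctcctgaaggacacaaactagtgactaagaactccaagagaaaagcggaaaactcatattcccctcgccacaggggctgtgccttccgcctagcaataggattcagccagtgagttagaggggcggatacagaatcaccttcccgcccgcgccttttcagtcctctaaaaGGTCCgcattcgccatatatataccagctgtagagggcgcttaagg
Hist1h1a: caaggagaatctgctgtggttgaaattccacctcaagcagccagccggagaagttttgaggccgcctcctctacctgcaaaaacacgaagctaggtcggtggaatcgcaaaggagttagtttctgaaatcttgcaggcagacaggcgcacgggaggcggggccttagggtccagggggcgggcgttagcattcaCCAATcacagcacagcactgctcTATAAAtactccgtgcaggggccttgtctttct
Hist3h2a: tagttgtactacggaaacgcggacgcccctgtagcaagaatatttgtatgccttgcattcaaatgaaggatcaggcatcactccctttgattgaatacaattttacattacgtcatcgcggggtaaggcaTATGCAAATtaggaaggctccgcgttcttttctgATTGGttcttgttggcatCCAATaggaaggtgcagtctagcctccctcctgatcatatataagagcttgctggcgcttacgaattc

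Over windows of 250 bases before to 50 after the start, 55 of the 62 genes matched a RefSeq promoter, and motif shares were set against all 26794 RefSeq promoters of that length. CCAAT on either strand was in 46 of the 55 (83.6%, against 38.14% of all promoters): in 6 of 6 H1, 18 of 18 H2A, 13 of 13 H2B and 6 of 6 H3 promoters, but in 3 of 12 H4 promoters. GGTCC on the gene's strand was in 11 of 12 H4 promoters and in 17 of the 55, against 26.82% of all promoters. ATTTGCAT on either strand was in 7 H2A and 4 H2B promoters and in no H1, H3 or H4 promoter, against 1.77% of all promoters. AAACACA on either strand was in 5 of 6 H1 promoters and 8 of the 55, against 7.18%, and TATAAA on the gene's strand was in 27 of the 55, against 8.91%. Of the letters that heat-shock factor is known to bind, GAANNTTC on either strand was in 9 of the 55, against 8.01% of all promoters, and in none of the 6 printed here. In several pairs an H2A and an H2B promoter face away from each other and their windows overlap. Such pairs include Hist1h2aa with Hist1h2ba, Hist1h2ah with Hist1h2bk, Hist1h2ag with Hist1h2bj and Hist1h2ad with Hist1h2bf. A match on either strand in the shared bases counts for both genes. The H2A and H2B shares, and those over the 55, are therefore not shares of independent sequences. Matches describe letters only and were tested for no effect.

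The first question was whether histone transcripts change with 4OHT, given to remove DGCR8 or DROSHA. No culture without a floxed gene received 4OHT. Effects of 4OHT or of Cre therefore cannot be told apart from those of losing Dgcr8 or Drosha. After 24 h of 4OHT no histone gene passed the test in either line, and the direction was most even in the Drosha line. There, 55 of 55 tested genes were lower with 4OHT, with a median log2 fold change of -0.525, against 0.003 over all 16262 genes tested. By edgeR's quasi-likelihood test with Benjamini-Hochberg adjustment 0 of the 55 were called, where 0.0307% of all genes were called lower; 27 had an unadjusted p below 0.05, and DESeq2 also called 0. The count depended on the setting: edgeR called 25 of 54 lower when the 24 h groups were fitted alone (748 of all genes called), 24 of 57 without a filter on low counts (355 of all genes) and 1 without replicate 2 with 4OHT, against 30 of all genes called in the fit over all times. Low unadjusted p-values were most frequent among the H4 genes, which encode the histone that pairs with H3. All 12 were lower, 11 with an unadjusted p below 0.05, with a median of -0.592, a lowest of -1.01 and a highest of -0.422. The 7 H3 genes had the lowest class median, -0.779, with all lower and 4 with an unadjusted p below 0.05; summed over the class the libraries held 47.3 and 52.0 CPM with 4OHT, against 82.0 and 84.2 CPM untreated, without overlap. The H1 genes had a median of -0.155 and no unadjusted p below 0.05.

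Hist2h4, an H4 gene of the Hist2 cluster, had the smallest p of the 55, at 24.1 and 21.2 CPM with 4OHT, against 35.6 and 34.3 CPM untreated. The groups did not overlap, and the log2 fold change was -0.62 ± 0.13 (SE; edgeR adjusted p = 0.114). Hist1h4d stood at 85.4 and 88.2 CPM with 4OHT, against 138 and 120 CPM untreated, and these groups did not overlap either. Summed over H4 genes, the Drosha-line libraries held 455 and 381 CPM with 4OHT, against 605 and 660 CPM untreated. Over the 28 S-phase genes fixed as a list, 22 were lower, none was called, and the median was -0.089.

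In the DGCR8 line at 24 h the 54 tested genes had a median log2 fold change of -0.144, with 37 lower, 0 called by edgeR or DESeq2 and 0 with an unadjusted p below 0.05, where edgeR called 0.107% of all genes. The H4 genes went the other way there: 11 of 12 were higher with 4OHT, with a median of 0.119. The difference between the lines was tested directly in a fit over both. All 12 H4 genes had a higher log2 fold change in the DGCR8 line, by a median of 0.701, and over all tested histone genes the median difference was 0.413. Of these genes 0 were called by edgeR or DESeq2, where 0.00602% of all genes were called, and 3 had an unadjusted p below 0.05. The H4 genes varied widely between replicates of the DGCR8 line. Hist1h4f stood at 78.0 and 185 CPM with 4OHT at 24 h, against 181 and 69.7 CPM untreated, and Hist1h4n at 35.0 and 68.9 CPM with 4OHT, against 73.3 and 18.1 CPM untreated. In both genes the same library of each group was the low one, replicate 1 with 4OHT and replicate 2 without, so that the spread within each group exceeded the difference between groups.

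At 48 h the median was 0.036 in the DGCR8 line with 32 of the 54 genes higher, and -0.123 in the Drosha line with 41 of 55 lower. Neither direction held without each library in turn: without treated replicate 2 of the Drosha line 30 of 54 were higher, and without untreated replicate 2 of the DGCR8 line 24 of 55 were. edgeR and DESeq2 called 0 histone genes in either line, and 5 had an unadjusted p below 0.05 in each; 1.48% of all genes were called in the DGCR8 line and 2.82% in the Drosha line. The smallest p belonged to Hist1h2bp, an H2B gene, in the DGCR8 line (0.65 ± 0.19, adjusted p = 0.129) and to Hist1h4k, an H4 gene, in the Drosha line (-0.75 ± 0.22, adjusted p = 0.0964). In the Drosha line the 2 treated libraries disagreed, with summed levels of 4464 and 3027 CPM with 4OHT, against 3762 and 4550 CPM untreated. The Drosha-line median was -0.387 without treated replicate 1 and 0.085 without treated replicate 2. Over both lines edgeR called 0 of the genes, with 1 unadjusted p below 0.05, where 8.18% of all genes were called. DESeq2 called 1 there, and 1268 of all genes. The median over both lines was -0.032. It was -0.183 without treated replicate 1 of the Drosha line and 0.09 without treated replicate 2. In the same fit at 24 h, 54 of 55 genes were lower with a median of -0.278; edgeR and DESeq2 called 0 of them, 12 had an unadjusted p below 0.05, and 0.0181% of all genes were called lower.

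**Figure D2:**
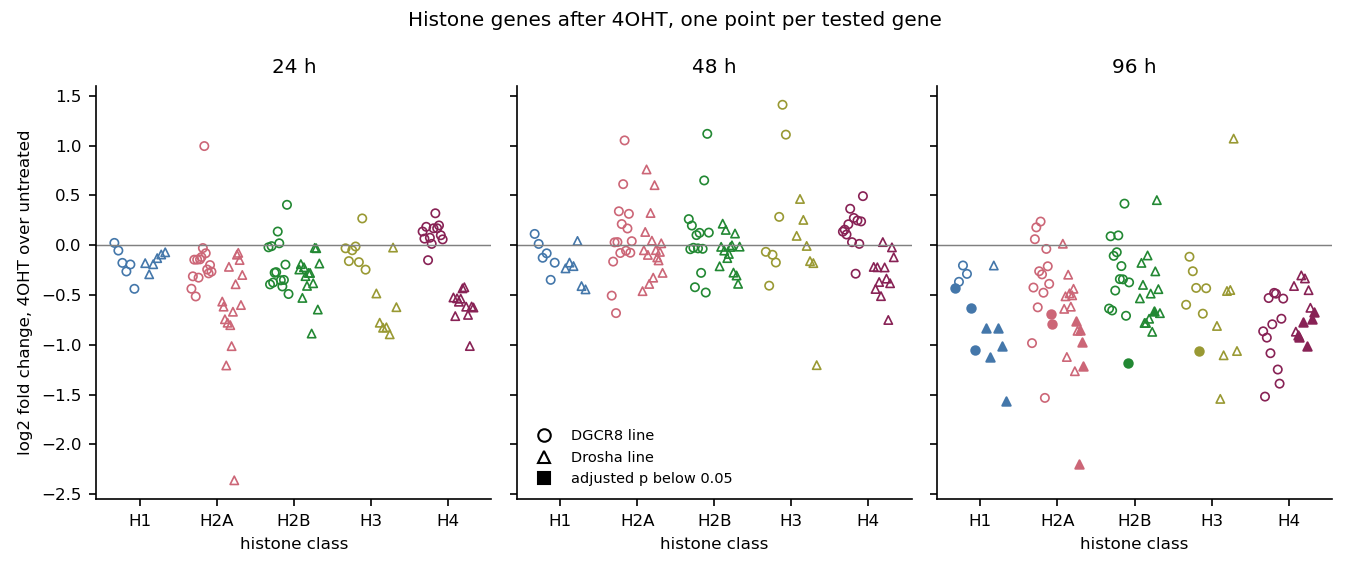
Log2 fold change of 4OHT over untreated for each tested histone gene (y axis), by histone class (x axis), in panels for 24, 48 and 96 h; circles are the DGCR8 line, triangles the Drosha line, and filled symbols have an edgeR adjusted p below 0.05. Filled symbols appear at 96 h alone, where the points of both lines lie mostly below 0; at 24 h the H4 circles lie mostly above 0 and the H4 triangles below it.

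After 96 h histone transcripts were lower in both lines. In the fit over both lines 53 of 55 tested genes were lower with 4OHT, with a median log2 fold change of -0.587, against -0.009 over all 16606 genes and 0.008 over the genes with the highest expression (top 25%). edgeR called 20 of the 55 lower and none higher, where 13% of all genes were called lower and 15.1% higher; DESeq2 called 21. Of the linker histone genes 5 of 6 fell, with a class median of -0.688. Of the others, 6 of 16 H2A genes fell (median -0.481), 2 of 14 H2B (-0.471), 2 of 7 H3 (-0.706) and 5 of 12 H4 (-0.745). By cluster, 14 of 44 Hist1 genes, 4 of 7 Hist2 genes and 2 of 3 Hist3 genes fell. Without replicate 1 of the untreated Drosha line at 96 h, edgeR called 7.

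Hist3h2a, an H2A gene of the small Hist3 cluster, had the smallest p. It stood at 92.1 and 96.5 CPM with 4OHT in the DGCR8 line, against 166 and 161 CPM untreated, and at 56.2 CPM with 4OHT in the Drosha line, against 154 and 107 CPM untreated. Treated and untreated libraries did not overlap in either line, and the fitted fold over both was 0.499 (SE of 0.14 on the log2 scale, adjusted p = 5.80e-05). Hist1h1t, the testis linker histone, had 5.66 and 3.97 CPM with 4OHT in the DGCR8 line, against 9.71 and 10.0 CPM untreated, and 1.39 CPM with 4OHT in the Drosha line, against 3.61 and 4.69 CPM untreated. These groups were apart too, at -1.31 ± 0.22 (adjusted p = 0.000209).

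Among the abundant linker histone genes, Hist1h1a stood at 768 and 675 CPM with 4OHT in the DGCR8 line, against 1005 and 933 CPM untreated, and at 345 CPM with 4OHT in the Drosha line, against 695 and 537 CPM untreated. It was lower in all 3 treated libraries than in any untreated library of the same line (-0.63 ± 0.12, adjusted p = 0.000766). Hist1h1e fell by 0.82 ± 0.14 on the log2 scale (adjusted p = 0.000306), Hist1h1b by 0.75 ± 0.16 (adjusted p = 0.00167) and Hist1h1d by 0.56 ± 0.17 (adjusted p = 0.0194). The remaining H1 gene, Hist1h1c, had a log2 fold change of -0.20 ± 0.12 (adjusted p = 0.215), with 650 and 570 CPM with 4OHT in the DGCR8 line, against 706 and 699 CPM untreated. Hist2h2ac, the most abundant H2A gene, had 130 and 143 CPM with 4OHT in the DGCR8 line, against 219 and 220 CPM untreated, and fell by 0.83 ± 0.17 over both lines (adjusted p = 0.00169).

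Not every abundant member took part. Hist1h2bb, the most abundant H2B gene, stood at 592 and 509 CPM with 4OHT in the DGCR8 line, against 537 and 498 CPM untreated, and at 200 CPM with 4OHT in the Drosha line, against 273 and 180 CPM untreated. Its groups overlapped and the log2 fold change was -0.04 ± 0.19 (adjusted p = 0.893). Among H4 genes Hist1h4d fell by 0.73 ± 0.22 (adjusted p = 0.0206), with 147 and 87.0 CPM with 4OHT in the DGCR8 line, against 173 and 165 CPM untreated, and Hist1h4b fell by 1.20 ± 0.36 (adjusted p = 0.0199). In the H3 class Hist1h3a fell by 0.71 ± 0.20 (adjusted p = 0.014), while the most abundant H3 gene, Hist1h3c, had -0.68 ± 0.27 (adjusted p = 0.0677). The 2 genes that were not lower were Hist2h3c1 at 0.18 and Hist1h2bp at 0.08, neither of which was called. Of 10 genes listed as testis copies, isolated copies or copies known to make some poly(A) mRNA, all were lower and 3 fell (median -0.559). Hist1h2bc, a copy of the last kind, had 52.9 and 41.0 CPM with 4OHT in the DGCR8 line, against 68.9 and 78.6 CPM untreated (-0.53 ± 0.25, adjusted p = 0.134), and Hist2h2be, another, had -0.13 ± 0.26 (adjusted p = 0.757).

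The lines were also fitted apart. In the DGCR8 line 48 of the 54 genes were lower at 96 h with a median of -0.466, and 7 fell, where 5.22% of all genes were called lower: Hist3h2a, Hist2h2ac, Hist1h1e, Hist1h1t, Hist2h3b, Hist1h1a and Hist3h2ba, by 0.43 to 1.19 on the log2 scale. Its 12 H4 genes were all lower with a median of -0.83, yet none was called by edgeR, with treated libraries that differed between themselves (Hist1h4f at 145 and 43.7 CPM with 4OHT, against 205 and 194 CPM untreated). The median stayed below 0 in each of the following fits, while the count of histone calls moved, as did that over all genes (2017 with every library). Without untreated replicate 1 the histone count was 0 (median -0.419; 459 of all genes called), without untreated replicate 2 it was 1 (-0.559; 401), without treated replicate 1 it was 12 (-0.732; 2550), and with the 96 h groups fitted alone it was 0 (-0.471; 0 of all genes). The Drosha line has 1 treated library at 96 h, whose spread is assumed to be that of the other groups and which also had the higher share of mitochondrial ribosomal RNA given above. With that limit, 52 of 55 genes were lower with a median of -0.683 and 17 were called, where 11% of all genes were called lower; without untreated replicate 1 the median was -0.337 and 7 were called. Hist3h2a (-1.21 ± 0.21, adjusted p = 0.00126), Hist1h1b (-1.12 ± 0.23, adjusted p = 0.0028) and Hist1h4c (-0.90 ± 0.20, adjusted p = 0.00486) were among them. The 96 h effects of the lines differed in 0 histone genes by edgeR or DESeq2, with 5 unadjusted p below 0.05, where 0.181% of all genes were called. The median difference was 0.219, and between -0.065 and 0.454 with 1 library left out in turn.

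Other lists are given beside the histone genes at 96 h over both lines. Of 18 genes for making or turning over histone mRNA, 2 rose and 4 fell (median 0.028): Slbp, whose protein binds the stem-loop, fell by 0.59 ± 0.09 (adjusted p = 7.04e-05), Cpsf3, which cuts the mRNA, fell by 0.43 ± 0.09 (adjusted p = 0.0013), and Upf1, a helicase of histone mRNA decay, fell by 0.64 ± 0.17 (adjusted p = 0.00796), while Npat, the activator of histone transcription in S phase, rose by 0.39 ± 0.08 (adjusted p = 0.00206). Of 28 S-phase genes 4 rose and 8 fell (median -0.121). Of 8 other RNAs without a poly(A) tail 1 rose and 1 fell (median -0.069). Of the 6 neuroectoderm markers 4 rose and 0 fell (median 0.462), led by Neurod1 at 1.40 ± 0.12. Summed, they held 146.5 and 198.8 CPM with 4OHT in the DGCR8 line, against 93.9 and 96.7 CPM untreated, and 202.8 CPM with 4OHT in the Drosha line, against 218.4 and 207.7 CPM untreated. Of the 8 primitive endoderm markers 1 rose and 0 fell (median 0.187), with 88.7 and 93.7 CPM with 4OHT in the DGCR8 line, against 106.0 and 108.1 CPM untreated, and 244.8 CPM with 4OHT in the Drosha line, against 140.6 and 141.5 CPM untreated. The part of these marker changes in the histone result was not tested. Of the 10 stem-cell markers 2 rose and 3 fell. Cell cycle distribution and cell identity were not measured apart from these RNAs; in bulk libraries fewer cells in S phase and less histone mRNA per cell cannot be told apart. In untreated cultures alone, 96 h against 24 h, 1 histone gene fell in the Drosha line (Hist1h2aa, -0.91 ± 0.19, adjusted p = 0.0159; 19.1 and 13.6 CPM at 96 h, against 36.6 and 25.5 CPM at 24 h), where 2.93% of all genes were called lower. That call ended without untreated replicate 1 of 24 h or replicate 2 of 96 h. In the DGCR8 line edgeR and DESeq2 called 0, where 0.0601% of all genes were called.

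The heat experiment asked what 1 h at 42 °C does to transcripts with and without METTL3. Most histone transcripts were higher at 42 °C in both genotypes. In the knockout lines the H4 genes had the highest class median and the germ-cell genes Hist1h1t and Hist1h2aa the highest single values. There 47 of 53 tested genes were higher, with a median log2 fold change of 0.561, against -0.018 over all 15635 genes. edgeR called 2 of them, where 0.166% of all genes were called higher, and 19 had an unadjusted p below 0.05. DESeq2 called 9 of them, and 107 over all genes in either direction. Each knockout line was sampled at both temperatures; a fit that took each line's own level into account (a cell-line block) called 21 of the 53 higher, where 3.87% of all genes were called higher. In parental cells 46 of 53 were higher, with a median of 0.632, against -0.006 over all genes. There edgeR called 0, where 0.0128% of all genes were called higher, with 16 unadjusted p below 0.05. DESeq2 called 1 of them, and 31 over all genes in either direction. A block for the replicate number gave 6 that rose, where 0.441% of all genes did.

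Hist1h1t rose most. It stood at 18.4, 23.6, 18.2 and 47.8 CPM in the knockout lines at 42 °C, against 2.0, 3.03, 2.69 and 4.06 CPM at 37 °C, and at 25.8 and 21.1 CPM in parental cells at 42 °C, against 7.06 and 4.76 CPM at 37 °C. Every heated library lay above every unheated one. The log2 fold change was 3.18 ± 0.35 in the knockout lines (adjusted p = 0.00206; 3.15 ± 0.15 with the block) and 1.98 ± 0.47 in parental cells (adjusted p = 0.592; 2.00 ± 0.19 and adjusted p = 0.000977 with the block). Its promoter, printed above, holds 1 CCAAT and 1 AAACACA within 250 bases.

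Hist1h2aa, the testis H2A gene, stood at 18.9, 8.29, 12.9 and 20.6 CPM in the knockout lines at 42 °C, against 4.00, 3.03, 2.60 and 4.82 CPM at 37 °C, and the groups did not overlap. It rose by 2.07 ± 0.36 on the log2 scale (adjusted p = 0.0422; 2.05 ± 0.15 and adjusted p = 4.23e-05 with the block). This call was lost without any one of 7 of the 8 knockout libraries, all except 42 °C replicate 2, with adjusted p of 0.0723 to 0.142. In parental cells it stood at 27.8 and 50.6 CPM at 42 °C, against 14.0 and 29.0 CPM at 37 °C, and it rose by 0.89 with the block (adjusted p = 0.0376). Against parental cells the knockout lines were lower at 37 °C, at 3.61 ± 0.995 CPM (SD, n = 4) in knockout lines and 21.5 ± 10.6 CPM (SD, n = 2) in parental cells. That difference of -2.56 ± 0.40 was the 1 histone call between the genotypes at 37 °C (adjusted p = 0.0181), where 0.486% of all genes were called lower. The call ended without either parental library or without knockout replicate 2 or 3 (adjusted p of 0.0512 to 0.25).

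**Figure D3:**
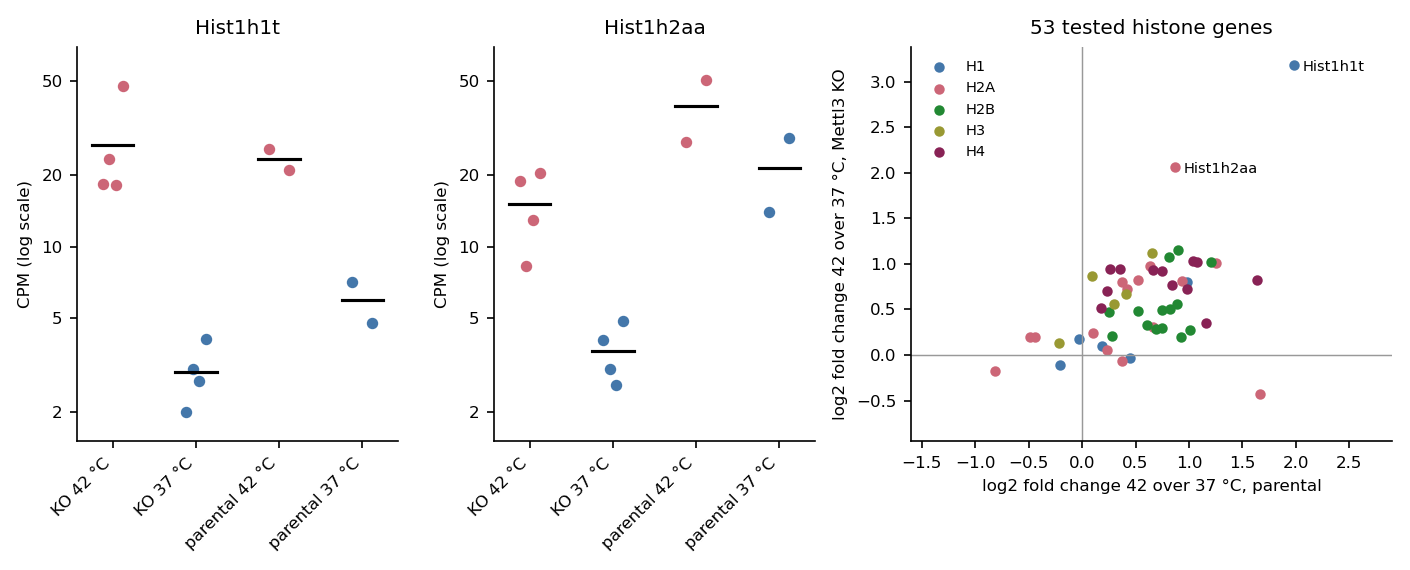
Left and middle, CPM (log axis) of Hist1h1t and Hist1h2aa in each library of the knockout lines at 42 °C and 37 °C and of parental cells at 42 °C and 37 °C; points are libraries and lines are group means. Right, log2 fold change of heat for the 53 tested histone genes in knockout lines (y axis) against parental cells (x axis): most points lie above 0 on both axes, with Hist1h1t farthest out at 3.18 in knockout lines and 1.98 in parental cells.

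Among the core histone classes H4 had the highest medians. All 12 tested H4 genes were higher at 42 °C in both genotypes. Their medians were 0.872 in the knockout lines and 0.791 in parental cells. The 21 genes that rose with the block in knockout lines included the H4 genes Hist1h4a, Hist1h4b, Hist1h4c, Hist1h4d, Hist1h4f, Hist1h4k, Hist1h4n and Hist4h4. Summed over the class, knockout lines held 924, 832, 1186 and 1040 CPM at 42 °C, against 529, 388, 647 and 622 CPM at 37 °C, with no overlap. Parental cells held 943 and 991 CPM at 42 °C, against 485 and 767 CPM at 37 °C. Hist1h4d stood at 185, 166, 248 and 196 CPM in knockout lines at 42 °C, against 74.5, 79.5, 132 and 131 CPM at 37 °C (0.96 ± 0.11 with the block, adjusted p = 0.000648). Hist1h4f stood at 147, 134, 159 and 161 CPM at 42 °C, against 66.7, 57.3, 102 and 86.9 CPM at 37 °C (0.97 ± 0.12, adjusted p = 0.00154). Hist4h4, which lies outside the clusters, stood at 103, 80.2, 99.6 and 114 CPM at 42 °C, against 59.0, 42.5, 41.3 and 50.4 CPM at 37 °C, and rose by 1.04 with the block. Each of these 3 genes was higher in every heated knockout library than in any unheated one.

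All 14 tested H2B genes were higher at 42 °C too, with medians of 0.476 in the knockout lines and 0.78 in parental cells. Hist1h2bk stood at 126, 153, 180 and 144 CPM in knockout lines at 42 °C, against 56.1, 59.1, 83.9 and 87.8 CPM at 37 °C (1.09 ± 0.12 with the block, adjusted p = 0.000646). In parental cells it stood at 167 and 176 CPM at 42 °C, against 73.9 and 121 CPM at 37 °C (0.86 ± 0.17 with the block, adjusted p = 0.0493). The H1 class was split. Hist1h1a stood at 894, 849, 787 and 1064 CPM in knockout lines at 42 °C, against 684, 429, 456 and 496 CPM at 37 °C, and rose by 0.82 with the block (adjusted p = 0.00817). The other somatic linker histone genes had smaller values and no call. Hist1h1b had 0.18 in knockout lines and -0.03 in parental cells, Hist1h1c -0.11 and -0.21, Hist1h1d -0.04 and 0.45, and Hist1h1e 0.10 and 0.19. By cluster the Hist1 genes had medians of 0.666 in knockout lines and 0.649 in parental cells, and the Hist2 genes 0.163 and -0.329. Of the copies known to make some poly(A) mRNA, Hist1h2bc had 0.47 ± 0.24 in knockout lines and 0.25 ± 0.33 in parental cells, and neither value was called.

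The difference between the knockout and parental responses to heat was tested directly. edgeR and DESeq2 called 0 of the 53 genes, and edgeR called 0% of all genes. The median difference was 0.097, with 0 unadjusted p below 0.05 by edgeR and 1 by DESeq2. With the cell-line block it was 0.182, with 0 calls and 11 unadjusted p below 0.05, and without 37 °C parental replicate 2 it was -0.282. At 42 °C the knockout and parental levels had a median difference of -0.143, with 0 calls by edgeR, 1 by DESeq2 and 4 unadjusted p below 0.05, where 0.64% of all genes were called. At 37 °C the median was -0.198, with 38 of 53 genes lower in knockout lines. This rests on the 2 parental libraries: without parental replicate 2 the median was 0.177 with 36 of 54 genes higher, and without parental replicate 1 it was -0.459. Beside these, the 28 S-phase genes had heat medians of 0.011 in knockout lines and 0.015 in parental cells, and the 18 histone mRNA processing and decay genes 0.011 and -0.008, with 0 of either list called by edgeR. The 11 genes of the replication-independent histone list had medians of -0.066 and -0.038 and 0 calls. The 8 other RNAs without a tail had -0.314 in knockout lines and 1.01 in parental cells, also with 0 calls.

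H2A transcripts varied widely at 37 °C between libraries of the same genotype, also between the 2 libraries of the parental line. Hist2h2ac stood at 31.2, 46.3, 189 and 232 CPM in the 4 knockout lines and at 114 and 247 CPM in the 2 parental libraries. Hist1h2ah stood at 7.16, 15.6, 93.5 and 78.0 CPM in knockout lines and at 31.0 and 82.7 CPM in parental libraries. In both genes knockout lines 1d1 and 3xU and parental replicate 1 were low, and lines 1d2 and 2c4d and parental replicate 2 were high. Summed over the H2A class at 42 °C, the knockout lines held 681, 722, 1253 and 834 CPM and parental cells 564 and 1379 CPM; at 37 °C the knockout lines held 259, 376, 922 and 852 CPM and parental cells 541 and 1061 CPM. No label calls these sets of libraries a batch, and the cause was not tested.

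The chromatin tables asked where METTL3, DGCR8, DROSHA and DICER lie. METTL3 was enriched over most histone windows. In 4 precipitates from 2 tagged clones, against 1 input from each clone, 48 histone windows were tested; 28 were higher in METTL3 precipitates and 2 lower by edgeR, where 4.14% of all 477127 windows were called higher and 12.5% lower. The median log2 difference was 0.85, against 0.045 over all windows and -0.107 over windows of short genes in the top 25% of expression. Windows holding 2 or more histone genes were called in 14 of 20 cases with a median of 1.29, and windows holding 1 gene in 14 of 28 with a median of 0.662. This fit took the 2 precipitates of each clone as independent. Its SE and p-values therefore mix the spread within and between the 2 clones.

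The window of Hist1h1b (chr13:21775001-21780000, mm10) had 12.9, 17.9, 21.1 and 12.6 CPM in METTL3 precipitates, against 1.71 and 2.55 CPM in inputs. All precipitates were above both inputs, at 2.75 ± 0.26 (adjusted p = 4.37e-18). The window of Hist1h2ah and Hist1h2bk (chr13:22035001-22040000), which holds the Hist1h2bk promoter printed above, had 5.43, 9.50, 13.8 and 7.61 CPM in precipitates, against 0.926 and 1.46 CPM in inputs (2.77 ± 0.28). The window of Hist1h1a, Hist1h3a and Hist1h4a (chr13:23760001-23765000) had 20.5, 27.0, 33.0 and 20.0 CPM in precipitates, against 6.99 and 10.6 CPM in inputs (1.32 ± 0.23), and so had the higher level of these windows at the smaller ratio.

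The 2 windows that were lower were those of the testis gene pair and of the lone Hist4h4. The window of Hist1h2aa and Hist1h2ba (chr13:23930001-23935000) had 2.38, 2.43, 2.39 and 2.84 CPM in METTL3 precipitates, against 5.18 and 7.00 CPM in inputs (-1.48 ± 0.19, adjusted p = 2.32e-11). The Hist4h4 window (chr6:136800001-136805000) had 3.46, 4.07, 5.09 and 3.88 CPM in precipitates, against 6.06 and 5.90 CPM in inputs (-0.75 ± 0.19, adjusted p = 0.00111). Both precipitate ranges lay below both inputs. The window of Hist1h1t and Hist1h4c (chr13:23695001-23700000) had 3.43, 4.26, 5.50 and 3.48 CPM in precipitates, against 2.68 and 3.21 CPM in inputs (0.31 ± 0.21, adjusted p = 0.353).

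The other precipitates had 1 library each, so that their ratios have no replicate check and their intervals (exact Clopper-Pearson, 95%) cover counting error only. Of 48 histone windows 36 (75%) lay over 1.5-fold above input for DGCR8 after cross-linking that the labels call DSG, where 35.9% of all windows did, with a median log2 ratio of 1.32, against 0.29 over all windows. For DROSHA (DSG) 34 of 46 did (73.9%, against 26.8% of all windows), with a median of 1.15, against -0.016. For DICER (DSG), which shares the parental input with DROSHA, 0 of 47 did, where 5.61% of all windows did; 9 lay over 1.5-fold below input, where 3.38% of all windows did, and the median was -0.308, against 0.021. DGCR8 precipitates differed between preparations. With the cross-linking labelled FA, 5 of 47 windows (10.6%) were over 1.5-fold above input, where 26.2% of all windows were, with a median of 0.176, against 0.174. For wild-type DGCR8 of the Mettl3 knockout set 8 of 46 were, where 21.5% of all windows were. For DGCR8 at 37 °C of the heat set 38 of 48 were (79.2%, against 26.9%), with a median of 1.98, against -0.079.

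The window of Hist1h2ab and Hist1h3b had 6.99 CPM for DROSHA, against 1.14 CPM in the parental input (log2 ratio 2.56, interval 2.06 to 3.22), and 18.8 CPM for DGCR8 at 37 °C in the heat set, against 1.58 CPM in its input (3.53, interval 3.25 to 3.90). The window of Hist1h2aa and Hist1h2ba was below input for DROSHA (-1.52, interval -2.23 to -0.931), for DGCR8 (DSG) (-0.71, interval -1.03 to -0.404) and for DGCR8 in the heat set (-0.77, interval -1.21 to -0.362), and at 0.08 for DICER. This window was thus low in the METTL3, DROSHA and DGCR8 (DSG) precipitates and in the DGCR8 precipitate of the heat set. DGCR8 in Mettl3 knockout cells, against wild-type cells, had a median log2 ratio of -0.112 over the histone windows, against -0.001 over all; 5 of 46 were over 1.5-fold lower, where 8.18% of all windows were, with Hist1h1d at -1.08.

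**Figure D4:**
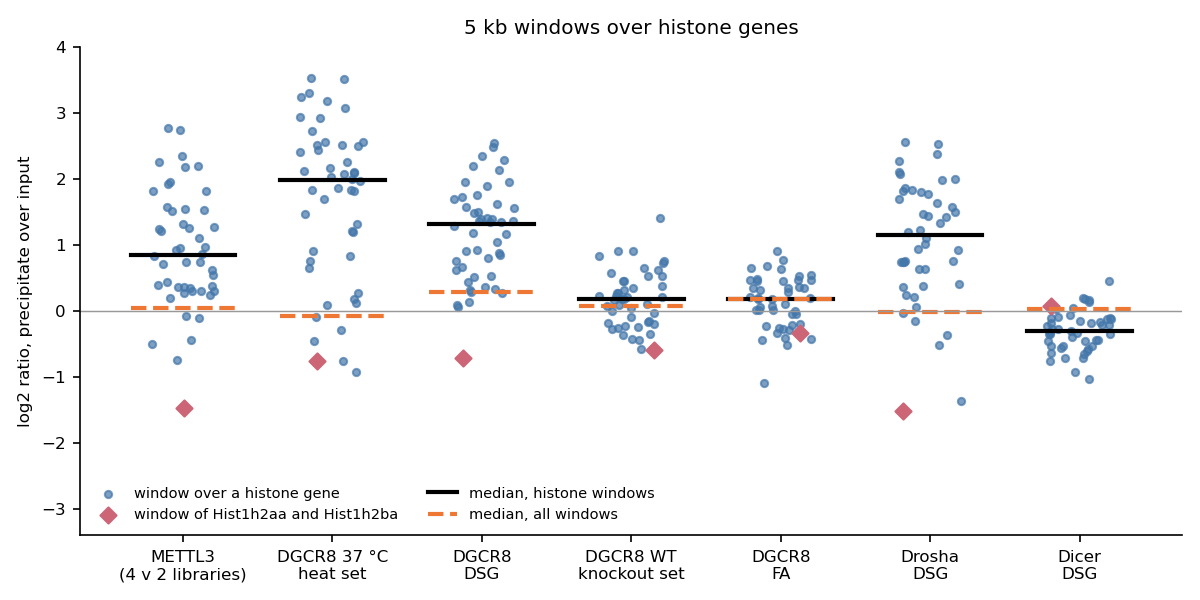
Log2 ratio of precipitate over input (y axis) for each histone window in METTL3, 4 DGCR8 sets, DROSHA and DICER (x axis); black lines are medians of the histone windows, orange dashed lines medians of all windows, and the red diamond is the Hist1h2aa and Hist1h2ba window. The black line lies above the orange one for METTL3 (0.85, against 0.045), DROSHA, DGCR8 (DSG) and DGCR8 of the heat set, and below it for DICER (-0.308, against 0.021).

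After 1 h at 42 °C the histone windows held less METTL3 and DGCR8 signal in most cases, while histone transcripts were higher. The samples include no input at 42 °C, so heat ratios set precipitate against precipitate and are not corrected for input. The DGCR8 precipitate held 79.3 M counts at 42 °C, against 20.4 M at 37 °C. Windows without a gene had heat medians of 0.42 for DGCR8 and 0.07 for METTL3. METTL3 was precipitated in 2 preparations whose sample labels are H4 and H5, which are names given by the submitters and not the histone. The median over histone windows was 5.48 and 9.73 CPM in METTL3 precipitates at 42 °C, against 11.5 and 11.8 CPM at 37 °C, in that order. Of 48 tested windows 37 were lower at 42 °C, with a median log2 difference of -0.645, against 0.012 over all windows and -0.596 over windows of short genes in the top 25% of expression. edgeR called 0 of them and 0% of all windows. Of the histone windows 19 had an unadjusted p below 0.05, of which 17 were lower. This count depends on pairing: with H4 and H5 as a block edgeR called 17 lower, where 1.84% of all windows were called lower. No label says that either name marks the same clone at both temperatures. No other tool was run on these windows. For DGCR8, 22 of 48 windows were over 1.5-fold lower at 42 °C, where 11.6% of all windows were, and 3 over 1.5-fold higher, where 33.9% were; the median was -0.488, against 0.276 over all windows, -0.524 over windows of genes in the top 25% of expression and -1.004 over windows of short genes in that top 25%, of which 64.2% were over 1.5-fold lower.

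The Hist1h1c window (chr13:23735001-23740000) had 6.14 and 15.4 CPM in METTL3 precipitates at 42 °C, against 52.3 and 86.9 CPM at 37 °C (-2.78 ± 0.69, adjusted p = 0.258), and 7.30 CPM for DGCR8 at 42 °C, against 37.2 CPM at 37 °C (-2.34). It had the largest drop for METTL3 of the 48 windows and did not overlap between temperatures, and the Hist1h1c transcript had heat values of -0.11 and -0.21 in the knockout lines and parental cells. All 7 Hist2 windows were lower for METTL3, with a median of -1.57, and for DGCR8, with a median of -1.42. The Hist2h3b window had 5.47 and 5.89 CPM in METTL3 precipitates at 42 °C, against 16.6 and 17.2 CPM at 37 °C (-1.67 ± 0.36), again without overlap. Of 37 Hist1 windows 26 were lower for METTL3, with a median of -0.325, and the DGCR8 median was -0.291.

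Windows that hold an H4 gene, a grouping chosen after the values were seen, had a METTL3 median of 0.208 with 6 of 12 higher at 42 °C, against -0.798 with 5 of 36 higher for the other histone windows; the DGCR8 median was -0.284 for the windows with an H4 gene and -0.672 for the others. The Hist1h1t and Hist1h4c window had 11.9 and 39.9 CPM in METTL3 precipitates at 42 °C, against 9.14 and 11.3 CPM at 37 °C (1.26 ± 0.53, adjusted p = 0.703), and a DGCR8 ratio of 0.475. Preparation H5 was the higher one at 42 °C in that window and in the window of Hist1h1a, Hist1h3a and Hist1h4a, which had 45.3 and 125 CPM at 42 °C, against 46.3 and 68.7 CPM at 37 °C. The count and the size of the METTL3 change rest on these libraries: without the 42 °C library of H4 the median was -0.195 with 1 window called higher, without that of H5 it was -1.14 with 6 called lower, and without the 37 °C library of H5 it was -0.342 with 1 called lower. Over all windows edgeR called 351, 892 and 1676 in those fits.

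**Figure D5:**
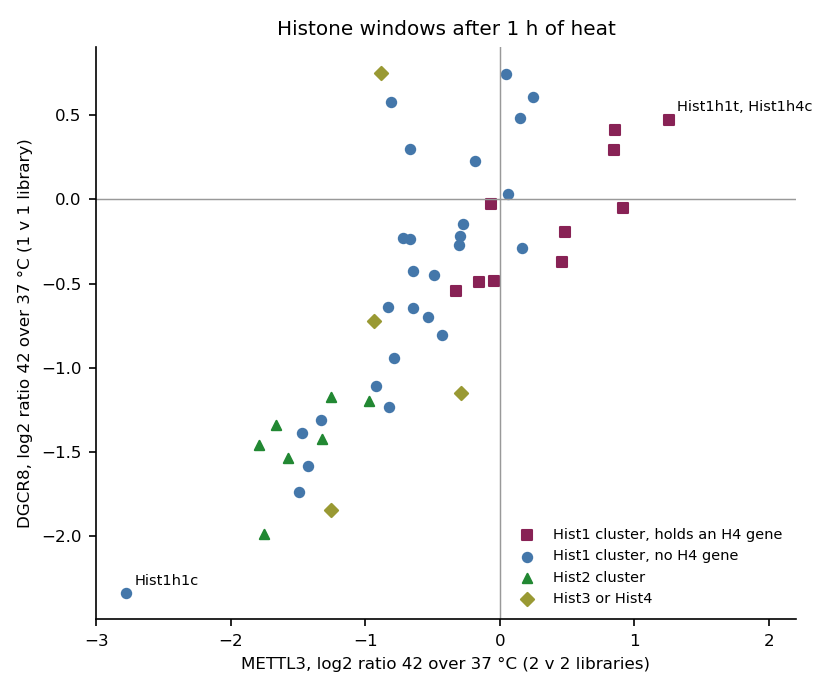
Log2 of 42 °C over 37 °C for METTL3 (x axis) and DGCR8 (y axis) in each histone window; colours separate Hist1 windows that hold an H4 gene, other Hist1 windows, Hist2 windows, and Hist3 and Hist4 windows. Hist2 windows lie below 0 on both axes, the Hist1h1c window lies farthest to the lower left at -2.78 for METTL3 and -2.34 for DGCR8, and the Hist1h1t and Hist1h4c window lies above 0 on both axes.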

How the data were processed

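Whole-number counts were deposited by the authors: reads per gene exons for 35 RNA libraries and reads per 5 kb window for 24 chromatin libraries in 4 tables. The submitters' processing notes name Bowtie, without a version, and the mm10 build; strand and the treatment of multiply mapped reads are not given in the sources used here. RNA tables carry Ensembl identifiers, of which 37607 of 39017 have a symbol in the naming table; windows were joined to RefSeq gene spans of GRCm38.p6. Titles were followed where source names, genotype or treatment labels conflict with them, and 1 column was given to the DGCR8 FA precipitate by elimination.

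CPM were scaled by TMM for RNA and by total window counts for chromatin. Tests used edgeR 4.0.16 in R 4.3.3 (quasi-likelihood, TMM, filterByExpr, Benjamini-Hochberg adjustment over all features, threshold 0.05): 1 fit per floxed line, 1 over both lines (the mean of the line effects, and their difference) and 1 over the heat libraries, with 14973, 16262, 16606 and 15635 genes. Windows needed a mean of 10 counts; comparisons of 2 libraries used CPM ratios with a pseudocount of 1 in windows with 50 counts together. DESeq2 1.42.0 was an alternative, and the fits were tested on simulated data. SE is the standard error of the log2 fold change; SD is over libraries. Intervals cover counting error only.

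The members and lists were chosen with earlier results of these data known. Named genes were, in each comparison, up to 6 called members in each direction with the smallest p (the 3 smallest p where fewer than 3 were called), the most abundant gene of each class and a list of 10 testis, isolated or partly polyadenylated copies; others named were chosen after their values were seen. Heat libraries of a knockout line are the same line at 2 temperatures, and their deviations from the group means correlated by 0.713 to 0.861 (0.656 for the parental libraries), so blocked values stand beside heat results. Figures used matplotlib 3.10.9.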

Additional observations from a re-analysis of the deposited data

Results flagged for a closer look

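In the knockout lines at 42 °C, Hist1h2bn stood at 75.8 CPM in replicate 4 (line 2c4d), against 97.3, 97.3 and 98.3 CPM in the other lines; its distance from the others was 0.958 of the group's whole range. It was the 1 value so far apart among 30 groups examined, of which chance alone flags about 1 in 20.

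In 4 of 78 gene and time pairs examined, every 4OHT library of one floxed line lay above its untreated libraries and every 4OHT library of the other line below. With so few libraries a side chance also gives such pairs, and their share over all genes was not counted. The ratio of means, 4OHT over untreated, was 1.25 in the DGCR8 line and 0.637 in the Drosha line for Hist1h4j at 24 h, 2.16 and 0.416 for Hist2h3c2 at 48 h, and 2.17 and 0.774 for Hist3h2ba at 48 h. For Hist2h2be at 96 h it was 0.623 in the DGCR8 line and 1.37 in the Drosha line. The difference between the lines missed the threshold in each case by edgeR (adjusted p of 1 for Hist1h4j, 0.936 for Hist2h3c2, 0.848 for Hist3h2ba and 0.368 for Hist2h2be).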

How the results depend on the processing

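Counts of called histone genes moved by more than 1.5 times under these settings, and counts over all genes moved too. Without a filter on low counts they were 3 for the DGCR8 line at 48 h and 24 at 96 h, 24, 5 and 33 for the Drosha line at 24, 48 and 96 h, 14, 2 and 43 over both lines, 1, 3 and 4 for the line difference, 2 and 4 for untreated DGCR8 and Drosha cultures over time, 5 and 1 for heat in knockout lines and parental cells, and 1 for knockout against parental at 42 °C. Over all genes the calls without the filter were 458 and 2525 at 48 and 96 h in the DGCR8 line (221 and 2017 with it). They were 355, 933 and 4190 in the Drosha line (30, 458 and 3854) and 301, 1427 and 4695 over both (73, 1359 and 4676). For the line difference they were 12, 58 and 427 (1, 1 and 30). For untreated DGCR8 and Drosha cultures they were 185 and 1462 (9 and 926), and for heat in knockout lines and parental cells 46 and 22 (29 and 3). With the compared groups alone the histone calls were 0 for the DGCR8 line at 96 h and 25 and 29 for the Drosha line at 24 and 96 h. They were 2 for untreated Drosha cultures, 1 for heat in knockout lines and 0 for knockout against parental at 37 °C. Over all genes these fits called 0, 748, 2885, 601, 13 and 4. DESeq2 called 1 over both lines at 48 h, 2 in untreated Drosha cultures, 9 and 1 for heat in knockout lines and parental cells, and 1 for knockout against parental at 42 °C. Over all genes it called 1268 over both lines at 48 h and 666 in untreated Drosha cultures. For heat it called 107 in knockout lines and 31 in parental cells. DESeq2's size factors moved 0 of 21 counts, and a pseudocount of 5 and a minimum of 20 counts moved 0 of 8 chromatin medians each. With library totals in place of TMM the ratio of summed histone CPM at 96 h, 4OHT over untreated, was 0.698 in the DGCR8 line (0.77 with TMM) and 0.522 in the Drosha line (0.634 with TMM). The cause was not tested.

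Leaving out 1 library in turn moved the histone calls in the floxed lines, as it did those over all genes. The histone median was -0.732 to -0.334 for the DGCR8 line at 96 h. For the Drosha line it was -0.49 to -0.418, -0.387 to 0.085 and -0.89 to -0.337 at 24, 48 and 96 h. Over both lines it was -0.183 to 0.09 at 48 h and -0.712 to -0.452 at 96 h. For the line difference at 96 h it was -0.065 to 0.454, and for untreated Drosha cultures -0.453 to 0.05. Heat in knockout lines gave 0.393 to 0.713, with 1 to 2 histone calls where 14 to 23 of all genes were called. Knockout against parental at 37 °C gave -0.459 to 0.177. METTL3 over input gave 0.682 to 0.938 and METTL3 after heat -1.143 to -0.195. Hist1h2bb at 24 h in the DGCR8 line ranged between -0.703 and 0.0018 on the log2 scale, turning without untreated replicate 2.

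With the cell line as a replicate block, heat called 21 in knockout lines and 6 in parental cells. In the floxed lines same-numbered libraries share only a number (correlations of -0.607 to 0.478). The block gave 7, 16 and 25 histone calls at 96 h in the DGCR8 line, the Drosha line and both. Over all genes those fits called 1600, 2057 and 3656. METTL3 over input gave 32 calls with the clone as a block. METTL3 precipitates named H4 or H5 share a label across temperatures, and their deviations from the group means correlated by 0.357. No label says what the names mark. The block gave 17 windows lower after heat, where 1.84% of all windows were called lower.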

Other observations

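Genes of the replication-independent histone list, most of which make poly(A) mRNAs, were lower in part at 96 h of 4OHT. Over both floxed lines 5 of 11 fell and none rose (median -0.318 on the log2 scale, edgeR), where 13% of all genes were called lower. H2afx, which encodes the H2A variant phosphorylated at DNA breaks and is known to make both stem-loop and poly(A) mRNAs, fell by 0.83 ± 0.12 (adjusted p = 8.58e-05) and H1f0, the linker histone of differentiated and non-dividing cells, fell by 0.39 ± 0.09 (adjusted p = 0.00265). Of 11 histone chaperone genes 2 fell and none rose (median -0.213), and of 12 mitosis genes 5 fell and 1 rose; Plk1 fell by 0.48 ± 0.08 (adjusted p = 0.000324). The S-phase list held changes in both directions: Ccne2, an E-type cyclin, rose by 1.20 ± 0.16 (adjusted p = 2.30e-05), while Gins2, a subunit of the replicative helicase, fell by 0.54 ± 0.10 (adjusted p = 0.000822).

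The H4 genes of the DGCR8 line separated libraries within groups. Summed over H4 genes, libraries held 857 and 650 CPM with 4OHT at 48 h, against 941 and 367 CPM untreated, and 653 and 322 CPM with 4OHT at 96 h, against 941 and 916 CPM untreated. Hist1h4n stood at 61.3 and 22.8 CPM with 4OHT at 48 h, against 68.0 and 16.1 CPM untreated. The low libraries fell in treated and untreated groups alike, and the cause was not tested.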
